A study of Mus musculus with 15 samples.

Results

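Long clusters of H3K27ac peaks were described in EL4 cells, a T lymphocyte lymphoma line from C57BL/6N mice. H3K27ac intervals of the 2 replicates were merged, and a merged autosomal peak was kept where both replicates touched it. Neighbouring peaks at most 12.5 kb apart were joined, and a joined cluster was called long when it spanned at least 30 kb and held at least 5 peaks. Of 12376 clusters, 198 (1.60%) were long, and they held 1867 of 23122 peaks (8.07%). The members were thus chosen by H3K27ac positions, and their spans, peak numbers and H3K27ac base pairs are a description of that choice. The lists came from 1 cell line in 1 condition, with ChIP-seq of H3K27ac, H3K9ac, H3K4me3, H3K36me2 and H3K27me3 and with ATAC-seq, which maps accessible DNA. Each assay had 2 replicates, which the study's methods call technical, so differences between replicates measure technical spread. The lists hold positions of called intervals with no score or read count, and the depth behind each peak is unknown. No test was run on these comparisons, because clusters of 1 cell line are not replicates of a condition.

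H3K27ac is deposited at active promoters and enhancers. Enhancers that control genes of cell identity often stand in dense stretches over many kilobases, a pattern known in T cells around regulators of the lineage. H3K4me3 marks active promoters mainly, H3K36me2 covers broad intergenic and intragenic domains, and H3K27me3 marks repressed chromatin.

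The T cell label was checked against marker genes. Of 11 T lineage markers, 9 had a tabulated start, and all 9 of these had H3K27ac and H3K4me3 at the start, Cd3e, Lck, Zap70 and Bcl11b among them. None of 3 B lineage and none of 4 myeloid markers with a tabulated start did, and 1 of 3 erythroid markers, Klf1, had both marks.

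Promoters of 4 genes with T cell roles show what DNA the clusters hold at accessible gene starts. Each sequence gives the 250 bases before a RefSeq start (GRCm38.p6) on the strand of the gene, and none of these windows reaches into an annotated gene. Capitals mark matches on either strand to 6 short motifs. The Ets family binds around GGAA, Runx factors around TGTGGT, and TCF and LEF factors around CTTTGA. The letters AGATAA were searched for the zinc finger family called GATA, and CACCTG, as well as the related CAGCTG, for E-box factors. None of these motifs contains another. The genes were picked after their values were seen, among named genes whose promoter carried H3K27ac, H3K4me3 and ATAC-seq peaks of both replicates. Cd3g encodes a subunit of CD3, Pdcd1 the receptor PD-1, Gfi1 a zinc finger repressor of blood cells and Ccnd3 cyclin D3. Cd3g lies at chr9:44980432-44980681 (minus strand), Pdcd1 at chr1:94052554-94052803 (minus), Gfi1 at chr5:107725806-107726055 (minus) and Ccnd3 at chr17:47504801-47505050 (plus).
Cd3g: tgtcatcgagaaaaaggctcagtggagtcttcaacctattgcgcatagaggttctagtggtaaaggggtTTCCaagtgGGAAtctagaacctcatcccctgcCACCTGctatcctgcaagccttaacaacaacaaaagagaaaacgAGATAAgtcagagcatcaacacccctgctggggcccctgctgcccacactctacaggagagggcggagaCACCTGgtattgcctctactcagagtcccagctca
Pdcd1: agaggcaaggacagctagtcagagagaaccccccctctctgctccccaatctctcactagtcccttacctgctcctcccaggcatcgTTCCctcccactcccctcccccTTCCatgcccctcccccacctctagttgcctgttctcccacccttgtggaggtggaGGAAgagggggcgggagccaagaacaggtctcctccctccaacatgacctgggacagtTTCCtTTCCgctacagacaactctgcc
Gfi1: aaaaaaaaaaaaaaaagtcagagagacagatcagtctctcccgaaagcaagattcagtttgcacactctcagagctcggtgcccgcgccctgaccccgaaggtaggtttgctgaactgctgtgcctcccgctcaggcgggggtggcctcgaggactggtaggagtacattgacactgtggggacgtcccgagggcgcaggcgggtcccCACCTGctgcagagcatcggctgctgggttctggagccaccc
Ccnd3: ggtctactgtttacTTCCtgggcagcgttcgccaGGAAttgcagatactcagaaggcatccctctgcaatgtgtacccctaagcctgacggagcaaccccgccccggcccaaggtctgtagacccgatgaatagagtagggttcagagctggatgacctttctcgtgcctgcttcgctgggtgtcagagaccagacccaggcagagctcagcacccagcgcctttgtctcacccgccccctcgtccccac
The Cd3g window held 2 Ets matches, 1 GATA match and 2 E-box matches. Pdcd1 had 5 Ets matches, Ccnd3 had 2, and the Gfi1 window shown had 1 E-box match and no Ets match. The window of another tabulated Gfi1 start in the same cluster, at chr5:107724344-107724593, had 4 Ets matches and no E-box match.

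Over whole promoter windows, from 250 bases before to 50 after the start, the motif content of long clusters was close to the rest. Of 275 accessible promoters in long clusters, 97.5% held the Ets letters, against 95.5% of 7712 accessible promoters and 95.6% of all 20085 promoters of protein-coding genes. The Runx letters stood in 12.7% of the accessible promoters in long clusters and in 11.3% of all accessible ones. For TCF/LEF the shares were 12.7% and 10.4%, for GATA 5.09% and 4.80%, and for E-boxes 26.5% and 26.9%. Across all promoters, accessible or not, the shares were 14.8% for Runx, 14.2% for TCF/LEF, 9.57% for GATA and 32.3% for E-boxes. The lower GATA share in long clusters was thus shared with accessible promoters in general. A match of letters is not a bound site, and genes with several starts counted once for each start.

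Mature miRNAs of 2 long clusters are shown, picked among those that lay under H3K27ac. The miRNAs miR-6912, miR-8105, miR-142b, miR-7058 and miR-1900 of long clusters also lay under it and are not shown. Capitals mark the seed, bases 2 to 8, and the sequences and positions are those of RefSeq (GRCm38.p6). miR-142a lies in a cluster of 50.6 kb with 9 peaks that touched Rnf43, Supt4a and Tspoap1 on chromosome 11, and miR-212 and miR-132 share a cluster of 39.5 kb with 7 peaks on the same chromosome.
mmu-miR-142a-5p: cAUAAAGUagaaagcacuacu
mmu-miR-142a-3p: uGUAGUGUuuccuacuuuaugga
mmu-miR-212-3p: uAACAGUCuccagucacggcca
mmu-miR-132-3p: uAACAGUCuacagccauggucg
miR-212-3p and miR-132-3p had the same seed. miR-142 is known for its abundance in blood cells. The miR-142a arms, at chr11:87756867-87756887 and chr11:87756903-87756925 (plus strand), lay in an H3K27ac peak and in an H3K4me3 peak of both replicates, and no H3K36me2 interval reached them. The same held for miR-212-3p at chr11:75173443-75173464 and miR-132-3p at chr11:75173723-75173744, both on the plus strand. In all, 17 of 919 autosomal miRNA hairpins (1.85%) were inside long clusters, in 14 of the 198, a share close to that of protein-coding genes given below.

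The clusters varied widely in size. Spans ran from 30.0 to 82.8 kb with a median of 38.3 kb, and peak numbers from 5 to 27 with a median of 9. H3K27ac covered between 11.0 and 86.9% of the span, with a median of 33.4%. Together the long clusters spanned 7.98 Mb and held 2.84 Mb of H3K27ac, which was 9.11% of all H3K27ac base pairs (9.09% in replicate 1 and 9.08% in replicate 2). The shortest member, at chr10:62311472-62341472, measured 30001 bp with 6 peaks. Just outside, a cluster at chr14:114944294-114974257 measured 29964 bp with 15 peaks, and 17 clusters reached 30 kb with fewer than 5 peaks. The longest of those 17 was at chr3:96401422-96436309, with 34888 bp and 4 peaks. Of the members, 25 had exactly 5 peaks.

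**Figure D1:**
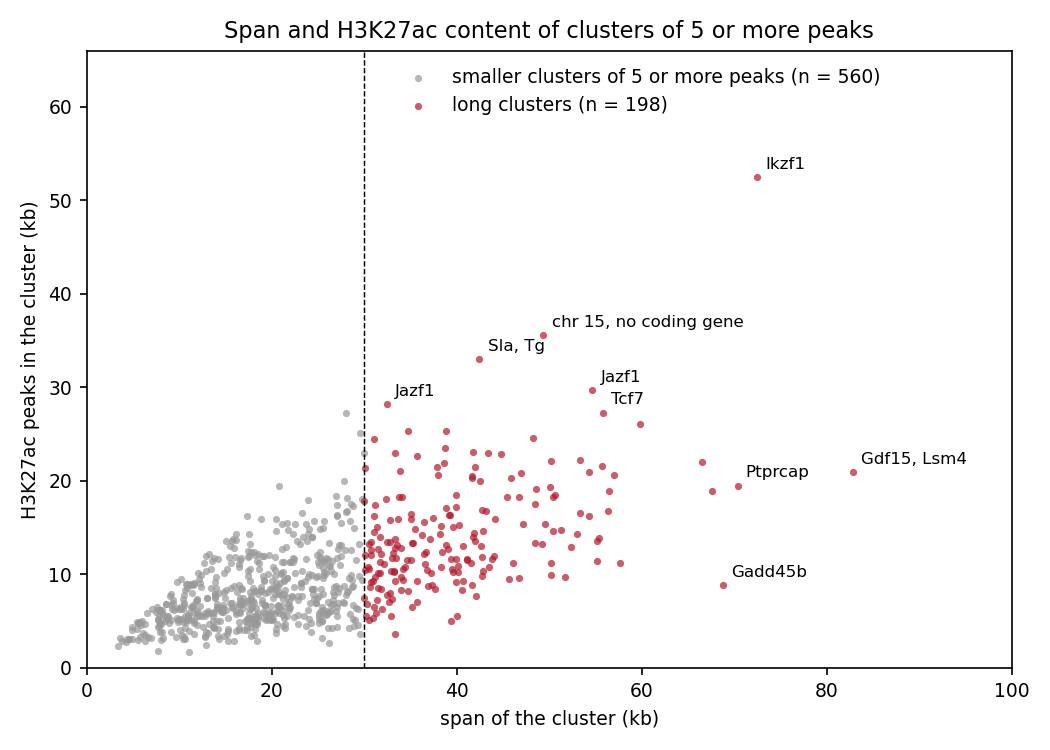
Span (kb) against the summed length of H3K27ac peaks (kb) for every cluster of 5 or more peaks, with one point per cluster, 198 long clusters in red and 560 smaller clusters in grey; the dashed line is the limit of 30 kb. The Ikzf1 cluster stands at 72.5 kb with the most H3K27ac, while the longest cluster, at 82.8 kb, has 20906 bp, and the points of both classes run up to the line without a gap.

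The cluster with most H3K27ac was at Ikzf1, which encodes Ikaros, a zinc finger factor of lymphocyte development. It lay at chr11:11679028-11751517, spanned 72.5 kb, had 27 peaks and 52492 bp of H3K27ac (51.3 and 51.6 kb in replicates 1 and 2) and was the second longest. H3K4me3 covered 21.7 and 18.4 kb of it, ATAC-seq peaks 5.38 and 6.32 kb, and H3K36me2 71.7 and 71.5 kb. Its widest H3K27ac peak ran over 13923 bp. H3K36me2 thus covered 98.9% of the span, whereas 7 of the 27 H3K27ac peaks touched H3K4me3 and 7 touched an ATAC-seq peak.

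Tcf7, which encodes the T cell factor TCF-1, had the sixth largest amount. Its cluster at chr11:52264944-52320727 spanned 55.8 kb with 12 peaks and 27276 bp of H3K27ac, of which the widest peak took 11983 bp. H3K4me3 covered 20.4 and 19.8 kb in the replicates, and 7 of the 12 peaks touched it. Fli1, an Ets family factor, had a cluster wholly inside the gene's interval, at chr9:32487233-32521942. It held 17 peaks and 25290 bp of H3K27ac in 34.7 kb, with 10 peaks that touched H3K4me3 and 4 that touched an ATAC-seq peak. These clusters of lineage regulators had merged H3K36me2 over most of their span, 90.7% at Tcf7 and 92.5% at Fli1. At Tcf7 the replicates covered 42.4 and 46.4 kb. Such values were common among the 198 long clusters, with a median of 81.2% and an upper quartile of 93.6%.

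The second largest amount of H3K27ac lay in a cluster that touched no protein-coding gene, at chr15:63242921-63292288. It had 22 peaks and 35609 bp of H3K27ac, 72.1% of its 49.4 kb. It began 1.25 Mb past the end of the Myc gene's interval. A Notch-responsive enhancer of Myc is known from T cell leukaemia on the far 3′ side of that gene, and whether these positions are that element was not tested. H3K4me3 covered 8.36 and 7.50 kb there, and ATAC-seq peaks only 0.466 and 1.35 kb. Accessible DNA in called peaks was thus sparse in a stretch dense in H3K27ac.

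Other clusters rich in H3K27ac lay at genes of several roles. The one at Sla and Tg held 33033 bp in 42.5 kb. Sla, a Src-like adaptor that dampens T cell receptor signalling, lies inside the interval of Tg, which encodes thyroglobulin, so the positions do not say to which gene the cluster belongs. Jazf1, a zinc finger gene, was the only protein-coding gene with 2 long clusters, of 54.7 and 32.5 kb, separated by a gap of 17.3 kb. They held 29675 and 28213 bp, and the shorter had the highest H3K27ac share of all members, 86.9%. Septin9, a cytoskeletal GTPase gene, had 26088 bp and the splicing regulator Celf2 25375 bp. The cluster with the tenth largest amount, 24556 bp at chr15:93708698-93756916, again touched no protein-coding gene.

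Longer clusters tended to hold more H3K27ac base pairs (Spearman's rho of 0.41 over 198 clusters, which share the same libraries), while the H3K27ac share of the span did not go with length (rho of -0.08). Both values describe the choice of members, since spans and H3K27ac base pairs come from the peaks that chose them. The longest cluster, at chr8:70593798-70676609, had 9 peaks and 20906 bp in 82.8 kb and touched Isyna1, Ssbp4, Lrrc25, Gdf15, Pgpep1 and Lsm4. The third, at chr19:4093532-4163888, spanned 70.4 kb with 13 peaks and touched 9 protein-coding genes, among them Ptprcap, a partner of the phosphatase CD45, Coro1b and Pitpnm1. The fourth, at Lmnb2, Gadd45b and Gng7, had 12 peaks but only 8877 bp in 68.7 kb. Msra (67.6 kb), B3gnt2 with Commd1 (66.5 kb), Septin9 (59.8 kb), Dapp1 (57.0 kb) and Cygb with Prcd and St6galnac2 (56.4 kb) were also among the 10 longest. The remaining one of the 10, at chr17:31734270-31791872, touched no protein-coding gene and was covered over 100% of its 57.6 kb by merged H3K36me2.

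**Figure D2:**
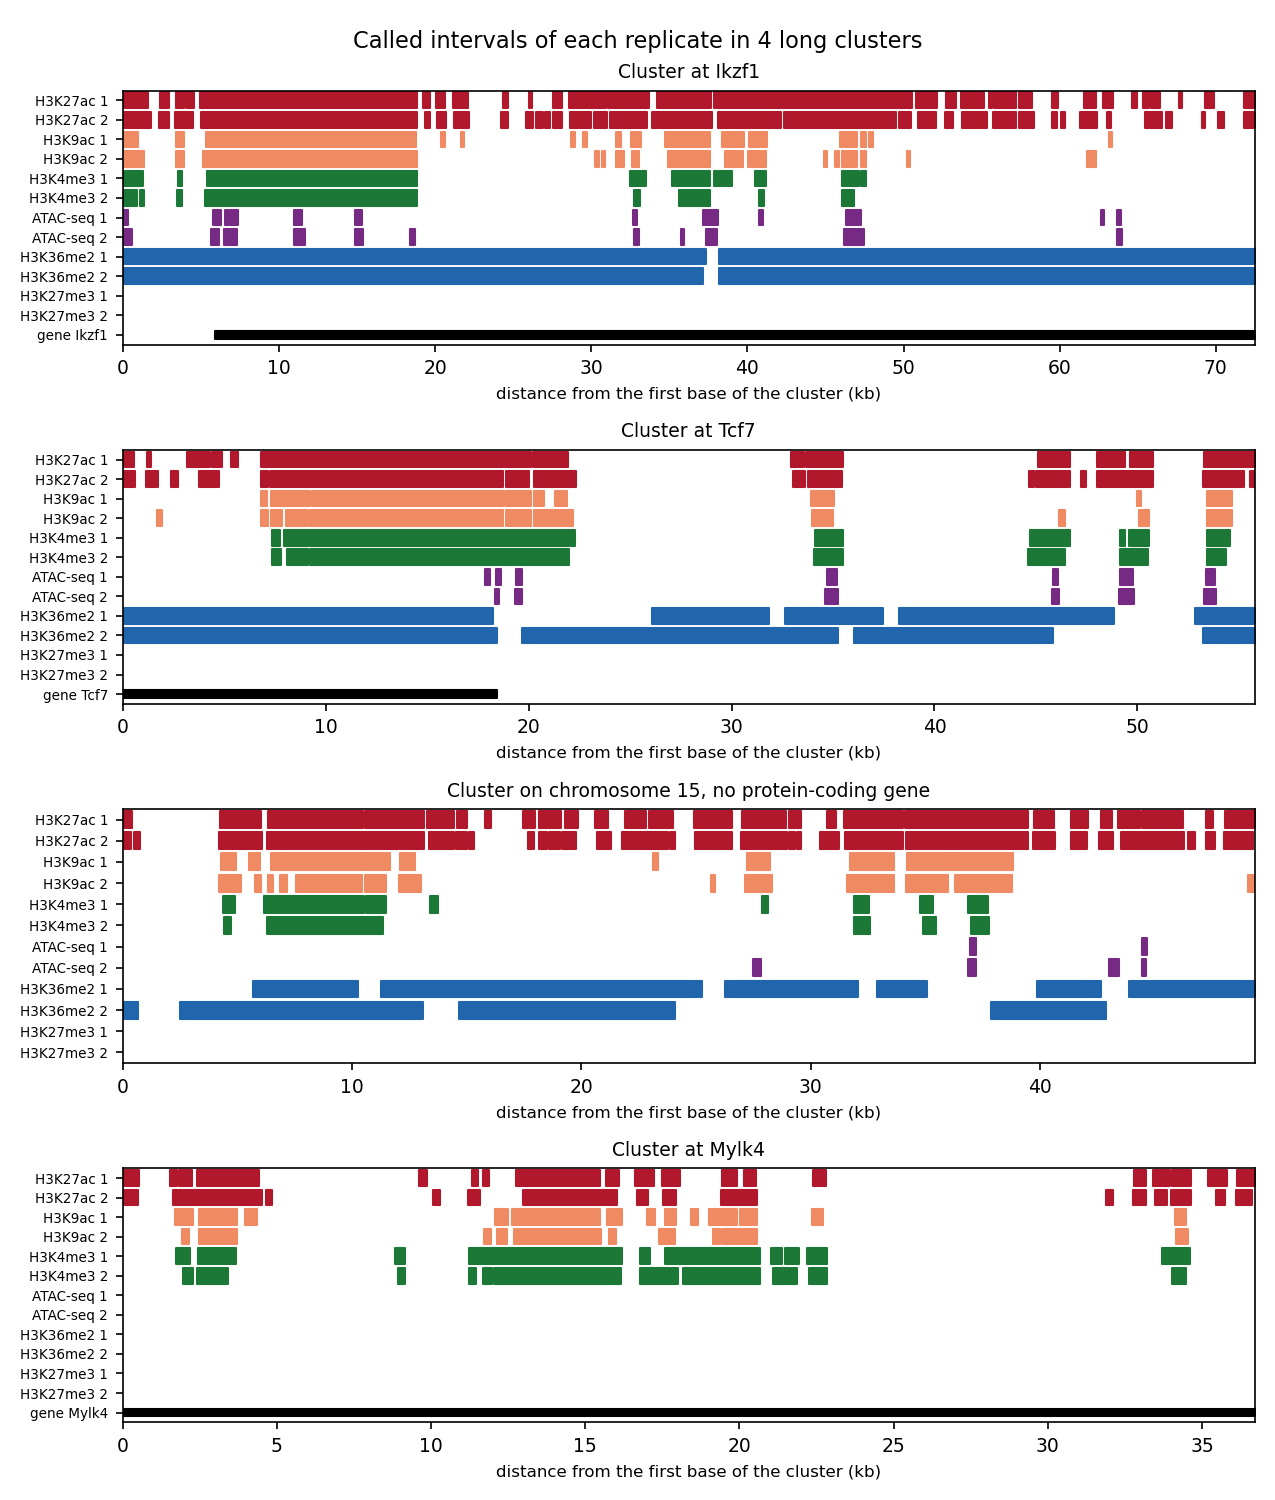
Called intervals of both replicates of each assay in 4 long clusters, against the distance (kb) from the first base of the cluster, with the interval of the protein-coding gene in black. At Ikzf1 and Tcf7, H3K36me2 covers most of the span and H3K4me3 is centred on a few wide peaks, while the cluster at Mylk4 has H3K27ac, H3K9ac and H3K4me3 intervals but no ATAC-seq, H3K36me2 or H3K27me3 interval.

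Long clusters touched 695 genes, of which 448 were protein-coding, 2.17% of the 20665 on autosomes. Of 16457 protein-coding genes with a start in the promoter table, which leaves out chromosome 18, 314 (1.91%) had one inside a long cluster. Of the 198 clusters, 77 touched 1 protein-coding gene, 29 touched 5 or more and 22 none, and 3 touched no gene of any type. Of all 198, 30 lay wholly inside a protein-coding gene, a group that overlaps the 77. The touched protein-coding genes were short, with a median length of 10.8 kb against 17.5 kb for all and 24.6 kb for the genes that touched an H3K27ac peak. By comparison, 50.4% of protein-coding genes touched some H3K27ac peak of both replicates, and of those 10419 genes 4.17% touched a long cluster. Chromosome 11 held 29 of the long clusters (14.6%) and 8.41% of all H3K27ac peaks.

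Lists of genes by role were read against these shares. Of 23 genes of the T cell receptor complex and its signalling, 6 touched a long cluster, and 19 touched an H3K27ac peak anywhere. They were the CD3 subunit genes Cd3d and Cd3g, which share 1 cluster, the adaptor genes Lat and Lcp2, the CD45 gene Ptprc, and Thy1, a surface glycoprotein of T cells. The Thy1 cluster had 15 peaks and 21480 bp of H3K27ac, the Lat cluster 9 and 15059 bp, that of Cd3d and Cd3g 5 and 11797 bp, that of Lcp2 9 and 11624 bp, and the Ptprc cluster 6 and 9314 bp. Of these 6 genes, 5 had a tabulated start inside, and Thy1, which has none there in the promoter table, lay with its whole interval inside the cluster.

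Of 25 transcription factors of the T lineage, 6 touched a long cluster and 23 an H3K27ac peak. Beside Ikzf1, Tcf7 and Fli1 these were Ikzf3 (Aiolos) with 21436 bp, Gfi1 with 16772 bp and the forkhead factor Foxp1 with 14247 bp. Only Ikzf1, Tcf7 and Gfi1 of the 6 had a tabulated start inside. The factors of this list are long genes, with a median of 88.0 kb, and the part of gene length in this count was not tested. The lists were chosen with earlier results of these data known.

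The clusters of these T cell genes differed in the other marks. At Foxp1, H3K4me3 covered only 2.15 and 1.65 kb of 36.2 kb in the replicates, 2 of 12 H3K27ac peaks touched it, and H3K36me2 covered 97.2% of the span. At Ptprc, 5 of 6 peaks touched H3K4me3, which covered 9.20 and 8.81 kb, and H3K36me2 covered 38.3%. The Foxp1 cluster lay inside the gene away from its tabulated starts, whereas the Ptprc cluster reached a start. At Cd3d and Cd3g, 4 of 5 peaks touched H3K4me3 (10.1 and 9.82 kb) and 3 an ATAC-seq peak. At Lat these were 6 and 3 of 9 peaks, at Lcp2 4 and 2 of 9, and at Thy1 8 and 4 of 15. H3K36me2 covered 70.7% of the cluster at Cd3d and Cd3g, 84.1% at Lat, 89.8% at Lcp2 and 92.6% at Thy1. ATAC-seq peaks were touched by 3 peaks at Foxp1 and by 5 at Ptprc. Fewer peaks were thus accessible than carried H3K4me3 in 4 of these 6 clusters, as many at Ptprc and 1 more at Foxp1.

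The remaining lists had fewer such genes. Among 16 leukaemia oncogenes and cell cycle genes, Ccnd3 and the cyclin-dependent kinase gene Cdk6 touched a long cluster, the latter with 15 peaks and 24502 bp in 31.1 kb. Pdcd1 and Lag3, both inhibitory receptors, did so among 11 checkpoint and costimulation genes, the interferon receptor gene Ifnar1 among 18 cytokine receptors, and the homing receptor gene Ccr7 among 13 homing and adhesion genes. Actb among the housekeeping genes, and Rpl27, Rps2 and Rps18 of 20 cytosolic ribosomal protein genes, also touched one. A share above that of all protein-coding genes was therefore not particular to T cell genes. None of 10 B lineage, 10 myeloid, 5 erythroid and 10 developmental transcription factor genes did, and only 1, 2, 1 and 0 of them touched any H3K27ac peak.

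**Figure D3:**
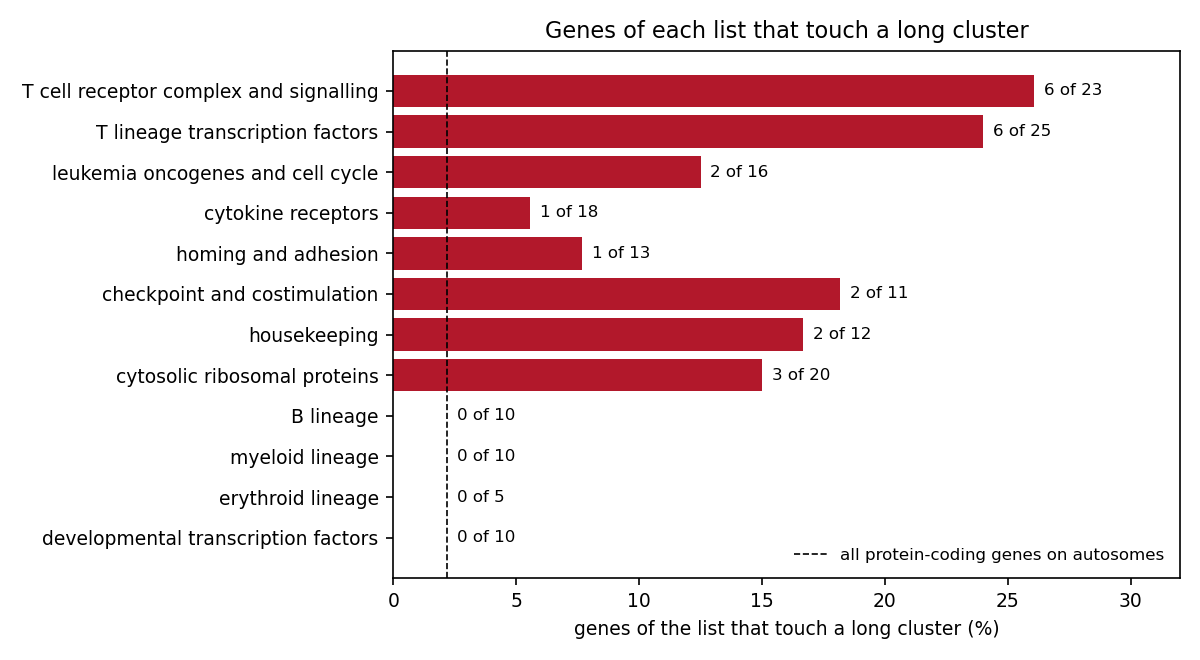
Share (%) of the genes of each list that touch a long cluster, with the count beside each bar and the share of all protein-coding genes on autosomes, 2.17%, as a dashed line. T cell receptor genes (6 of 23) and T lineage factors (6 of 25) have the longest bars, housekeeping and ribosomal protein genes also lie above the line, and 4 lists are at 0.

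The content of other marks was compared with that of 4695 smaller clusters of 2 or more peaks, of 7483 single peaks and of the 560 smaller clusters that also had 5 or more peaks. Of the 1867 H3K27ac peaks in long clusters, 55.9% touched a merged H3K4me3 peak, against 67.7% in smaller clusters and 85.9% of single peaks. With each replicate's own H3K4me3 list the share in long clusters was 54.2% ± 1.6 (SD, n = 2) and that in smaller clusters 66.2% ± 0.94. The difference of -11.8 points was -11.5 and -12.5 in the replicates, larger than their spread, and it had the same direction on 16 of 19 autosomes. Against smaller clusters of 5 or more peaks it was 0.61 points, with 55.3% touched there, so the lower share was not seen against clusters held to the same minimum of peaks, which still had fewer peaks each (3442 in 560 clusters).

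Accessibility followed the same order. ATAC-seq peaks were touched by 46.4% of H3K27ac peaks in long clusters, 57.4% in smaller clusters and 79.9% of single peaks. The replicates gave 40.5 and 43.7% in long clusters and 51.0 and 54.8% in smaller ones, a difference of -10.8 ± 0.49 points, and long clusters were lower on 18 of 19 autosomes. In smaller clusters of 5 or more peaks the share was 42.7%, 3.71 points below that of long clusters. Taken per cluster, the median share of peaks touched was 50% in long and in smaller clusters and 40% in those of 5 or more peaks. Of the 4695 smaller clusters, 2582 had only 2 peaks, so that their share can take few values. Equal medians therefore cannot show whether the pooled difference also holds per cluster. For H3K4me3 these medians were 59.4%, 80% and 57.1%. H3K9ac, another acetyl mark of active chromatin, was touched by 63.7% of peaks in long clusters, 70.6% in smaller ones, 60.1% in those of 5 or more peaks and 87.1% of single peaks.

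Position at genes moved with these shares. A gene start lay within 1 kb of 21.5% of the peaks in long clusters, of 31.6% in smaller clusters, of 18.5% in smaller clusters of 5 or more peaks and of 54.7% of single peaks. Near a start, 94.2% of peaks in long clusters and 95.0% in smaller clusters touched H3K4me3, a difference of -0.80 points. More than 1 kb from any gene start or end, the shares were 40.4% and 50.6%. For ATAC-seq they were 83.2% and 86.8% near a start and 33.2% and 39.5% away from starts and ends. The difference in H3K4me3 from smaller clusters was thus small near starts and larger away from genes' ends. Against smaller clusters of 5 or more peaks, it was 5.28 points near starts (5.84 and 4.60 in the replicates) and -4.15 points away from starts and ends (-3.45 and -4.42). The small pooled difference of 0.61 points was thus made of opposite ones. For ATAC-seq both were above 0, with 6.09 points near starts and 1.59 away. Mean peak width was 1519 bp in long clusters and 1282 bp in smaller ones, and the part of peak width and position in these differences was not tested.

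**Figure D4:**
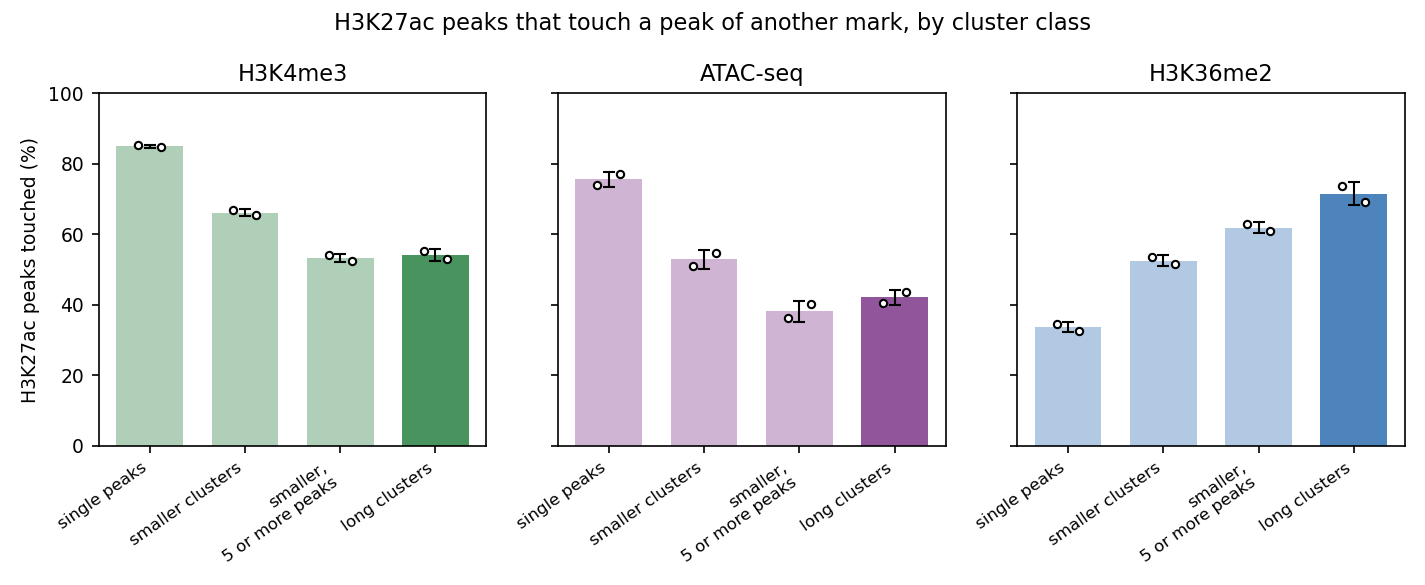
Share (%) of H3K27ac peaks that touch a peak of H3K4me3, ATAC-seq or H3K36me2, for single peaks, smaller clusters, the smaller clusters of 5 or more peaks among them, and long clusters; bars are means of the 2 replicates, points the replicates and error bars the SD. H3K4me3 and ATAC-seq in long clusters (54.2% and 42.1%) lie below smaller clusters and near those of 5 or more peaks, and H3K36me2 (71.5%) is highest in long clusters.

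H3K36me2 went the other way. It covered 74.5% of the base pairs in the spans of long clusters and 59.4% in those of smaller clusters, a difference of 15.1 points. The replicates gave 66.1 and 62.4% against 49.6 and 46.9%, a difference of 16.0 ± 0.76 points, and long clusters were higher on 18 of 19 autosomes. The same held inside the H3K27ac peaks, with 69.0% against 53.0%, and in the gaps between them, with 77.5% against 64.2%. The difference kept its direction against smaller clusters of 5 or more peaks, which had 68.0% of the span covered. It also kept it near gene starts, where 71.4% of peaks in long clusters touched H3K36me2. There the shares were 52.7% in smaller clusters and 64.2% in those of 5 or more peaks. Against that last class, the shares of peaks touching H3K4me3 or ATAC-seq had turned, but the coverage of the span had not. H3K4me3 covered 21.4% of the span in long clusters, 31.0% in smaller clusters and 25.9% in those of 5 or more peaks. For ATAC-seq these values were 6.80%, 11.4% and 8.12%. H3K27ac itself covered 35.5% of the span in long clusters, 42.9% in smaller clusters and 43.7% in those of 5 or more peaks. The part of this H3K27ac share in the span coverage of the other marks was not tested. Inside the H3K27ac peaks, coverage by H3K4me3 and ATAC-seq was 1.64 and 0.77 points higher in long clusters than in those of 5 or more peaks. Merged lists cover at least as much as either replicate for every mark and class, so the merged H3K36me2 levels are the upper ones.

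Content changed step by step with the number of peaks in a cluster. From single peaks to the 112 clusters of 10 or more peaks, the share touching H3K4me3 went from 85.9 to 49.4% and that touching ATAC-seq peaks from 79.9 to 33.5%. H3K36me2 went from 44.5 to 76.8%. The share of peaks near a gene start went from 54.7 to 13.9%, and its part in the other trends was not tested.

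**Figure D5:**
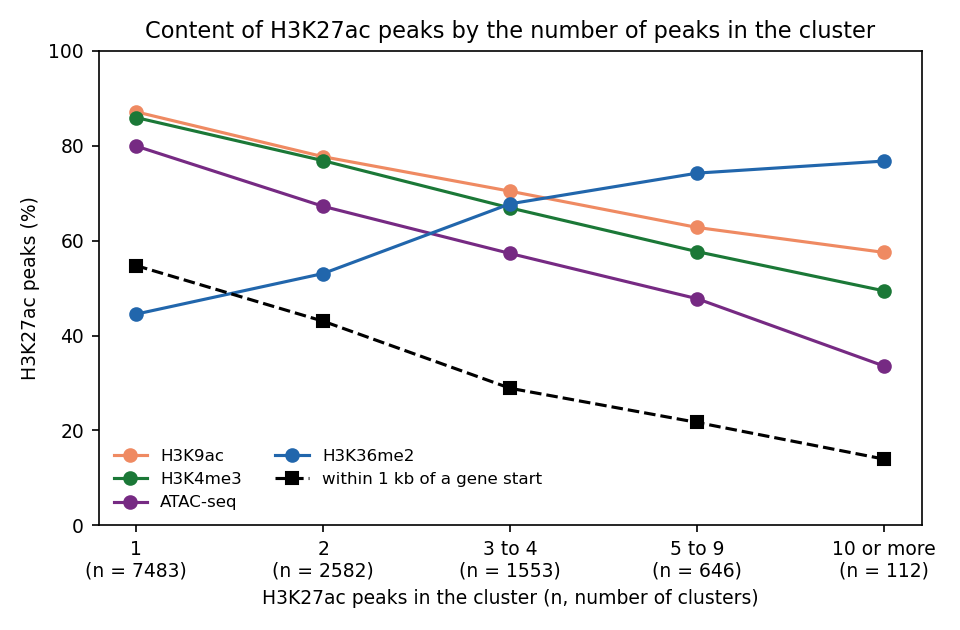
Share (%) of H3K27ac peaks that touch a merged peak of each mark, or lie within 1 kb of a gene start, by the number of H3K27ac peaks in the cluster. H3K9ac, H3K4me3, ATAC-seq and nearness to starts all drop from 1 peak to 10 or more peaks, and H3K36me2 increases from 44.5 to 76.8%.

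Among the long clusters themselves, marks varied with the number of protein-coding gene starts inside, which was known for 196 of them. In 65 clusters with no tabulated protein-coding start, 42.6% of H3K27ac peaks touched H3K4me3 and 35.3% an ATAC-seq peak. H3K36me2 covered 80.3% of their span. In 62 clusters with 1 start these values were 53.9%, 40.9% and 76.7%, and in 54 clusters with 2 to 4 starts they were 71.2%, 63.4% and 69.3%. In the 15 clusters with 5 or more starts they reached 80.4%, 71.7% and 62.0%. The median H3K27ac share of the span was 39.2% without a start and 30.0% with 5 or more. Long clusters thus ranged from stretches with no tabulated protein-coding start to rows of neighbouring promoters.

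H3K4me3 and H3K9ac peaks of each replicate were found in all 198 long clusters, and 197 had an ATAC-seq peak in a merged list. This was not particular to them. With merged lists, only 3.04% of smaller clusters of 5 or more peaks lacked H3K4me3, 1.07% H3K9ac and 3.21% ATAC-seq peaks. The 1063 ATAC-seq peaks in long clusters amounted to 1.33 per 10 kb of span, against 2.10 in smaller clusters. Per H3K27ac peak they amounted to 0.57, against 0.63. Of them, 96.4% touched H3K27ac, against 97.6% in smaller clusters, and 33.5% lay within 1 kb of a gene start, against 43.1%. H3K27me3 was almost lacking, with 2 of 1867 peaks touching it (0.11%). The shares were 0.45% in smaller clusters, 0.23% in those of 5 or more peaks and 1.20% of single peaks. This was not particular to long clusters either, since 99.0% of them and 98.9% of smaller clusters of 5 or more peaks had none. The 2 long clusters with H3K27me3 had it in 1 replicate each, so no long cluster had it in both replicates. One touched Srsf9, Gatc, Triap1, Cox6a1 and Msi1, and the other Eef2k.

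No H3K36me2 interval reached 4 of the long clusters in either replicate. 2 of them were histone gene clusters on chromosome 13. The larger, at chr13:23533820-23587126, had 17 peaks and touched 14 histone genes, such as H1f3, H3c4 and H4c6, and 13 of its peaks touched H3K4me3 and 13 an ATAC-seq peak. The smaller, at chr13:22020526-22051512, had 10 peaks and touched 5 histone genes, and 9 of its peaks touched H3K4me3. Near-identical histone genes share sequence, and only uniquely aligned reads were kept by the authors, so the coverage of these clusters is uncertain.

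The other 2 lay within single genes. At Mylk4, a myosin light chain kinase family gene, a cluster at chr13:32761269-32797978 had 13 peaks and 12397 bp of H3K27ac. H3K4me3 covered 12.8 and 11.6 kb of it in the replicates, and no ATAC-seq peak reached it, the only long cluster without one. At Immp2l, which encodes a mitochondrial membrane peptidase, a cluster at chr12:41318528-41350290 had 17 peaks, none wider than 1494 bp, with 12216 bp of H3K27ac and 1.12 and 1.01 kb of H3K4me3. ATAC-seq peaks were called there in replicate 2 alone, over 0.334 kb in all. Both clusters were thus called in each H3K27ac replicate while accessible DNA and H3K36me2 were scarce or not called.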

How the data were processed

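Deposited peak lists of EL4 cells were used for 12 of 15 samples, 2 replicates for each of 6 assays. Input and RNA-seq samples do not enter the analysis. Per the labels and the methods, the authors aligned reads to GRCm38 with STAR 2.5, kept unique alignments, treated duplicates with Picard, and called peaks with MACS2 (narrow marks, ATAC-seq) or Epic (broad marks), ChIP-seq against input. The deposited values are interval positions in bp, with no score.

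Intervals of both replicates were merged, and H3K27ac peaks touched by both were joined. A peak touched another set when they shared 1 bp. Gene intervals came from RefSeq (GRCm38.p6). Gene starts came from a RefSeq promoter table of 31396 autosomal starts on 18 autosomes. Starts were tabulated for 357 of the 448 protein-coding genes touched, so counts of starts are minima. Members and gene lists were chosen with earlier results of these data known. Named were the 10 longest clusters, the 10 with most H3K27ac, those at the limits, the protein-coding genes these touch, and list genes touching a long cluster (up to 30 by H3K27ac base pairs). Other clusters and genes named, including miRNAs, remaining list genes, clusters without H3K36me2 or with H3K27me3 and the printed promoters, were chosen after their values were seen. All comparisons are descriptions without a test, with mean and SD of 2 replicates. Alternatives covered replicates, joining distance, limits, peak width, overlap, the class compared and the gene set. Counting was checked against bedtools 2.31.1 (13 comparisons, 0 different) and on 20 simulated sets with planted clusters (0 different), with Python 3.11.15, numpy 2.4.6, scipy 1.17.1 and matplotlib 3.10.9.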

Additional observations from a re-analysis of the deposited data

How the results depend on the processing

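The direction against smaller clusters held under every alternative run for H3K4me3, ATAC-seq and H3K36me2 except one. The comparison with smaller clusters of 5 or more peaks, chosen after seeing the data, turned the shares of peaks touched. They went to 0.61 points for H3K4me3 and 3.71 for ATAC-seq, and the H3K36me2 span coverage was lowered to 6.41. The values below give, in order, the number of long clusters, their share of H3K27ac base pairs (%), the differences in points for H3K4me3, ATAC-seq and H3K36me2, and the genes touched, with values that moved less than the spread between replicates, or counts within 1.5 times, left out. Joining at 5 kb gave 17, 1.32, -31.4, -29.5, 19.4 and 25, and joining at 20 kb gave 571, 22.5, -7.58 and -7.03, with 2408 genes. A span of 50 kb gave 32, 1.91, -14.9, 16.4 for H3K36me2 and 147 genes, and a minimum of 10 peaks gave 80, 4.72, -19.9 and -21.4, with 267 genes. All merged H3K27ac peaks gave 10.9%, -13.1 and -12.4, the intersection of replicates 8.89%, -13.7 for H3K4me3 and 17.4 for H3K36me2, and peaks of at least 500 bp 7.18%, -9.89, -10.1 and 12.7. Against single peaks the differences were -30.1, -33.5 and 41.4. An overlap of 50% of the shorter interval gave -7.73 for ATAC-seq. Away from gene starts and ends, added later, the differences were -10.2 and -6.35. With other marks touched by both replicates, also added later, H3K36me2 gave 16.2. There were 448 protein-coding genes, and 411 genes of any type with a start inside, an alternative added later.

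Leaving out replicate 1 or 2 gave 228 to 231 clusters, 10.0 to 10.2% of H3K27ac base pairs, -14.2 to -13.0, -12.5 to -11.5 and 16.4 to 17.5 points, and 782 to 799 genes. No paired analysis was possible because no result comes from a test. Depth is unknown, so a missing interval may reflect shallow coverage as well as absence of the mark, and these were not told apart.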

Other observations

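Long clusters also touched immune genes outside the lists. The cluster with miR-141 and miR-200c spanned 48.5 kb on chromosome 6, had 9 peaks and 19149 bp of H3K27ac, and touched Ptpn6, which encodes the phosphatase SHP-1, with Atn1, Phb2, Emg1 and Grcc10. Neither miRNA lay in an H3K27ac peak. A cluster of 48.5 kb on chromosome 17 with 7 peaks touched 9 protein-coding genes, among them Tapbp, which encodes tapasin of antigen presentation, Daxx and Rps18, and all 7 of its peaks touched H3K4me3.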
